A study of Mus musculus with 8 samples.

Results

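The genes that start autophagy and build its membrane were followed as a set of 38 named genes, from the kinases that initiate the process to the conjugation enzymes, the LC3 and GABARAP proteins, selected cargo receptors and adaptors, and the transcription factors Tfeb and Tfe3. The members were chosen by name, with earlier results of these data known, and matched by symbol to array probe sets that carry a single gene symbol. Of the members, 37 were measured among 22180 genes, and Optn was not analysed here. The cells were melanocytes, the pigment cells of the skin, taken from mouse pups aged 1 to 5 days, labelled female, and grown for 22 days. The 8 arrays formed 4 groups of 2. KO UVA cells carried floxed Atg7 alleles together with the Cre recombinase driven by the tyrosinase promoter (Atg7 f/f Tyr::Cre) and received 20 J/cm² of UVA-1, ultraviolet A light of the longer wavelengths. KO sham cells had the same genotype and a sham treatment. WT UVA and WT sham cells carried the floxed Atg7 alleles without Cre (Atg7 f/f) and received the same 2 treatments. RNA was taken 6 h after treatment in all groups. The tyrosinase promoter is active in pigment cells, so other cells in such a culture would keep an intact Atg7. The duplicates are described as biological and are numbered 1 and 2 in each group. The labels do not say whether a number stands for an animal, a litter or a day. The p-values therefore measure only a spread between these arrays, in the main fit the spread left after group and number.

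In autophagy a cell encloses part of its own contents in a double membrane and delivers it to the lysosome. The ULK kinase complex starts the process, a class III PI3-kinase complex marks the membrane with the lipid PI3P, and ATG9 and ATG2 proteins supply lipid. ATG7 then activates the ubiquitin-like proteins ATG12 and ATG8, ATG10 and ATG3 pass them on, and the product on the membrane is lipid-bound LC3 or GABARAP, to which cargo receptors bind. Melanocytes are known to use part of this machinery in forming melanosomes.

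Values are robust multi-array average (RMA) intensities on a linear scale, with array medians between 110 and 115, and differences are given on the log2 scale. Levels of different genes were not compared, since each probe set has its own sensitivity. The arrays split first by replicate number, on a first principal component with 77.7% of the variance, and the number was a block in the main limma fit. The 12 melanocyte markers summed to 62541 and 92403 in KO UVA, 59669 and 91206 in KO sham, 58535 and 105784 in WT UVA, and 61692 and 107963 in WT sham (numbers 1 and 2). The 12 fibroblast markers summed to 52685 and 21860 in KO UVA, 55906 and 23556 in KO sham, 52969 and 10137 in WT UVA, and 54626 and 11532 in WT sham. The number 1 arrays of both genotypes thus had high fibroblast sums, and in number 2 the KO arrays lay above the WT arrays. The median KO minus WT difference of the fibroblast markers was -0.01 in number 1 (6 of 12 positive) and 1.12 in number 2 (11 of 12 positive), and that of the melanocyte markers 0.04 (8 of 12 positive) and -0.34 (0 of 12 positive). Of the other marker sets, the 9 measured keratinocyte markers summed to 947 to 1160 and the 6 mast cell markers to 151 to 163 over the 8 arrays. The 8 endothelial markers summed to 4608 to 5761, mostly in Eng (3020 to 4658). The 6 measured Schwann cell markers summed to 5660 to 7352, mostly in Pmp22 (4300 to 5189). The median KO minus WT difference of the Schwann cell markers was 0.13 in number 1 (5 of 6 positive) and 0.17 in number 2 (4 of 6 positive). The 8 myeloid markers summed to 1238 to 2677 in KO arrays and 1062 to 1385 in WT arrays, with medians of -0.08 in number 1 (2 of 8 positive) and 0.04 in number 2 (6 of 8 positive). The gap in the myeloid sums lay mainly in Lyz2, a lysozyme gene, which in number 2 read 1554 in KO UVA and 1717 in KO sham, against 452 in WT UVA and 557 in WT sham. No marker can be at 0 on this scale, whose lowest value is 7.

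Promoter windows are shown for 4 members on which the comparisons turn: Atg7, the deleted gene, Map1lc3b, the member whose 4 KO arrays all lay above the 4 WT arrays, and Atg14 and Gabarapl1, which had among the largest UVA minus sham differences. Each window runs from 250 bases before to 50 bases from the annotated start on and comes from RefSeq on GRCm38.p6. The positions are chr6:114670846-114671145 on the plus strand for Atg7, chr14:47568385-47568684 on the minus strand for Atg14, chr8:121590188-121590487 on the plus strand for Map1lc3b and chr6:129532942-129533241 on the plus strand for Gabarapl1. Capitals mark matches, on either strand, to the E-box CACGTG, the core of the sites bound by TFEB and TFE3, or to the antioxidant response element core TGACNNNGC, bound by NRF2.
Atg7: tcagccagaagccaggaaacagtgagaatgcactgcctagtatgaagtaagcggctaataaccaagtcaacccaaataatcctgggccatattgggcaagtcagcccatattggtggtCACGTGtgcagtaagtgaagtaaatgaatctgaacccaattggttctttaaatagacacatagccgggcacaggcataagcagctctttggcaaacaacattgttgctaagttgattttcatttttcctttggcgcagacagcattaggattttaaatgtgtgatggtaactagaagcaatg
Atg14: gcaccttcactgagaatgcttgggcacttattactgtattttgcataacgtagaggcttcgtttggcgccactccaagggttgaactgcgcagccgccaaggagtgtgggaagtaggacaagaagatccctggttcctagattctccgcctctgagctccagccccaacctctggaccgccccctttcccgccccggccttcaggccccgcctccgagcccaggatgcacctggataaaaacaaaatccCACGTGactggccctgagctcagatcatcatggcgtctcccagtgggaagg
Map1lc3b: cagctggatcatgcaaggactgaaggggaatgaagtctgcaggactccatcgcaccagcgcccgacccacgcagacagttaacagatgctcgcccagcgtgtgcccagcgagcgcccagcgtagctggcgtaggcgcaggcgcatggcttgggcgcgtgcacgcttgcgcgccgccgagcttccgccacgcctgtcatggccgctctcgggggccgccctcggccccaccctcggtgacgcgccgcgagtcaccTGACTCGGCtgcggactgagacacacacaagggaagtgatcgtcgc
Gabarapl1: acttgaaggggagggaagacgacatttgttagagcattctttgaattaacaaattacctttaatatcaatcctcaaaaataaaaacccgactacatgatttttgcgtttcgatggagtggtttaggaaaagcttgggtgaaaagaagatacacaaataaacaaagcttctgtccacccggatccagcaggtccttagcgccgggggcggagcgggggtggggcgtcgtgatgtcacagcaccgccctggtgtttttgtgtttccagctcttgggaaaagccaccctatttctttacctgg
The E-box of Atg7 begins 132 bases before the start and that of Atg14 1 base before it, the match in Map1lc3b begins at base 5 from the start on, and the Gabarapl1 window holds neither motif. Of the 37 measured members 30 had windows in the search, 36 in all. Member windows on a chromosome that was set aside were not searched, while the shares over all windows were taken without this exclusion. An E-box stood in 4 of these 36 windows (Atg3, Atg5, Atg7 and Atg14), against 7.15% of all 32851 windows. The antioxidant core stood in 4 (Atg13, Map1lc3b, Tax1bp1 and Ulk2), against 12.4% of all windows, and no member had both. These matches describe the letters in the window and do not show binding.

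Setting KO against WT, with both treatments averaged, asks how the rest of the machinery is expressed when Atg7 is deleted. Atg7 had the largest difference of the members, Map1lc3b, Gabarapl1 and Calcoco1 had small positive differences, and Atg16l2 and Atg4a had negative ones. None of the 37 members passed the test over all genes: limma with the replicate number as a block called 0 members at an adjusted p under 0.05, where it called 0.0316% of all genes (7 of 22180). At an unadjusted p under 0.05 there were 6 members (16.2%), against 8.88% of all genes. That count depended on single arrays and was lower without any 1 of the number 2 arrays. The matching shares of all genes are not given here, so the change is not read as a trait of the members. Without the block limma called 0 members and 0% of all genes, with 0 members at an unadjusted p under 0.05 against 2.33% of all genes. With 1 mean per genotype and number it again called 0 members, with 1 member (Atg7) at an unadjusted p under 0.05 against 3.32% of all genes. The members' median difference was 0.02 log2 units (0.00 to 0.06 when 1 array was left out, the highest without WT sham of number 1) and that of all genes -0.01, and 22 members had a positive difference (59.5%, against 45.8% of all genes). The 95% intervals of all 37 members lay between -0.56 and 0.36 in the blocked fit. Without the block the interval of Atg4a ran as wide as -1.53 to 0.97.

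Atg7, the E1-like enzyme of both conjugation systems, read 804 and 602 in KO UVA and 831 and 598 in KO sham, against 1004 and 832 in WT UVA and 989 and 859 in WT sham (numbers 1 and 2). The highest KO array (831) lay just below the lowest WT array (832), so the genotypes did not overlap, as for 0.942% of all genes. The averaged difference was -0.39 (SE 0.07, 0.763 of the WT level, 95% interval -0.56 to -0.22, limma adjusted p = 0.297), and it was lower in KO in 4 of 4 pairs. It came to -0.29 in number 1, where the fibroblast markers differed by a median of -0.01 and the melanocyte markers by 0.04. In number 2 it came to -0.49, where these medians were 1.12 and -0.34. The share of cells that kept Atg7 and the amount of its RNA per cell cannot be told apart in such bulk samples. The exons that the probe set covers are not stated, and probes outside the deleted part would give no direct check of the deletion.

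**Figure D1:**
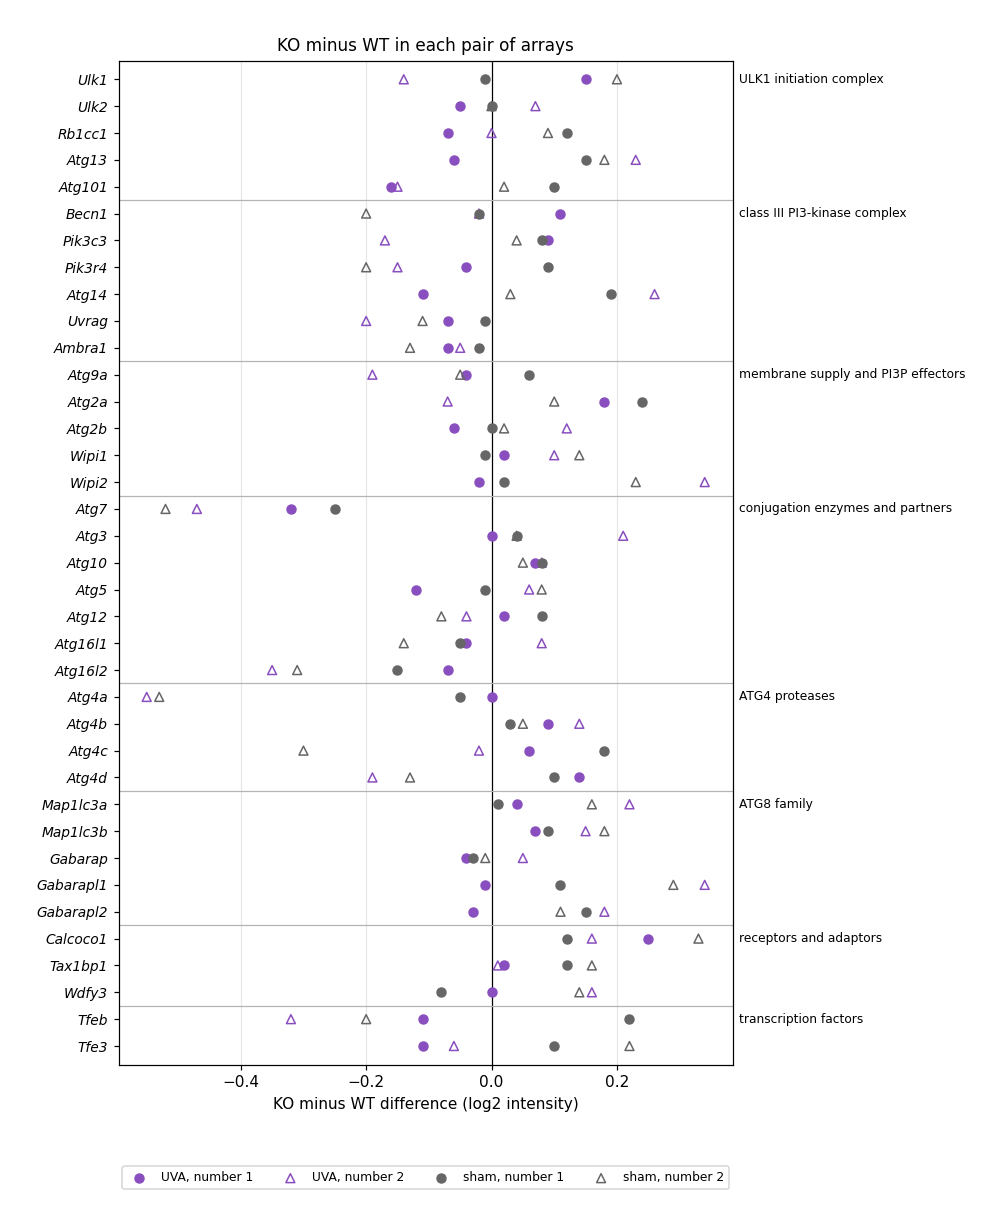
KO minus WT difference (log2 intensity, horizontal axis) of each of the 37 measured members (vertical axis, by role) in the 4 pairs of arrays of the same treatment and replicate number. Filled circles are number 1, open triangles number 2, purple UVA and grey sham. All 4 points of Atg7 lie left of 0, from -0.52 to -0.25, and the number 2 points of Atg4a lie at -0.55 and -0.53.

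Among the other conjugation genes the differences were close to 0. Atg3, which passes ATG8 proteins to lipid, differed by 0.07 (SE 0.06), Atg10, which passes on ATG12, by 0.07 (SE 0.07), Atg5, the partner of ATG12, by 0.00 (SE 0.07) and Atg12 itself by -0.01 (SE 0.06). Atg16l1, which brings the conjugate to the membrane, differed by -0.04 (SE 0.06). Its paralogue Atg16l2 read 227 and 224 in KO UVA and 208 and 201 in KO sham, against 238 and 286 in WT UVA and 230 and 249 in WT sham. All 4 KO arrays of Atg16l2 lay below the 4 WT arrays, as for 0.942% of all genes, though only narrowly (227 against 230). The difference was -0.22 (SE 0.08, limma adjusted p = 0.546), with -0.11 in number 1 and -0.33 in number 2. In number 2 the fibroblast and melanocyte markers also differed between the genotypes, and the part of those cells was not tested.

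The ATG8 family holds the proteins that become bound to lipid. Map1lc3b, which encodes LC3B, read 7352 and 7812 in KO UVA and 7415 and 8138 in KO sham, against 6982 and 7047 in WT UVA and 6966 and 7172 in WT sham. It was the only member with all 4 KO arrays above all 4 WT arrays, a pattern shown by 0.866% of all genes. The difference was small, 0.12 (SE 0.04, 1.09-fold, 95% interval 0.03 to 0.22, limma adjusted p = 0.517), with 0.08 in number 1 and 0.17 in number 2. Gabarapl1, a GABARAP relative, read 4183 and 4894 in KO UVA and 3819 and 4044 in KO sham, against 4198 and 3871 in WT UVA and 3535 and 3297 in WT sham. Its genotypes overlapped within the UVA arrays, and its difference of 0.18 (SE 0.07, limma adjusted p = 0.545) lay mostly in number 2 (0.32, against 0.05 in number 1). There the fibroblast and melanocyte markers also differed between the genotypes, and the part of those cells was not tested. The difference was 0.11 (SE 0.07) for Map1lc3a and 0.10 (SE 0.06) for Gabarapl2. Gabarap, with 2 probe sets, read 9241 and 9975 in KO UVA and 9016 and 9723 in KO sham, against 9479 and 9621 in WT UVA and 9215 and 9798 in WT sham. Its KO and WT arrays overlapped, with a difference of -0.01 (SE 0.04). Map1lc3a read 842 and 739 in KO UVA and 845 and 652 in KO sham, against 821 and 636 in WT UVA and 840 and 584 in WT sham. Gabarapl2 read 1176 and 1270 in KO UVA and 1318 and 1317 in KO sham, against 1202 and 1118 in WT UVA and 1184 and 1224 in WT sham. Both overlapped between the genotypes, and for Map1lc3a number 1 lay above number 2 in every group.

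The ATG4 proteases trim ATG8 proteins before conjugation and release them from lipid. Atg4a read 596 and 1163 in KO UVA and 600 and 1157 in KO sham, against 595 and 1698 in WT UVA and 623 and 1675 in WT sham. The genotypes were nearly equal in number 1 (-0.03) and apart in number 2 (-0.54), where the fibroblast and melanocyte markers also differed between the genotypes; the part of those cells in the difference was not tested. The averaged value was -0.28 (SE 0.11, adjusted p = 0.548). Atg4b differed by 0.08, Atg4c by -0.02 and Atg4d by -0.02.

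Of the receptors and adaptors, Calcoco1, a receptor for the endoplasmic reticulum, had the largest difference. It read 1446 and 1497 in KO UVA and 1302 and 1391 in KO sham, against 1220 and 1344 in WT UVA and 1201 and 1106 in WT sham. KO was higher in 4 of 4 pairs, although KO sham of number 1 lay below WT UVA of number 2. The difference was 0.21 (SE 0.06, 1.16-fold, adjusted p = 0.496), and it was 0.18 in number 1 and 0.24 in number 2. Tax1bp1, a receptor for ubiquitin-tagged cargo, differed by 0.08 (SE 0.05) and Wdfy3, a large adaptor for protein aggregates, by 0.05 (SE 0.06).

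**Figure D2:**
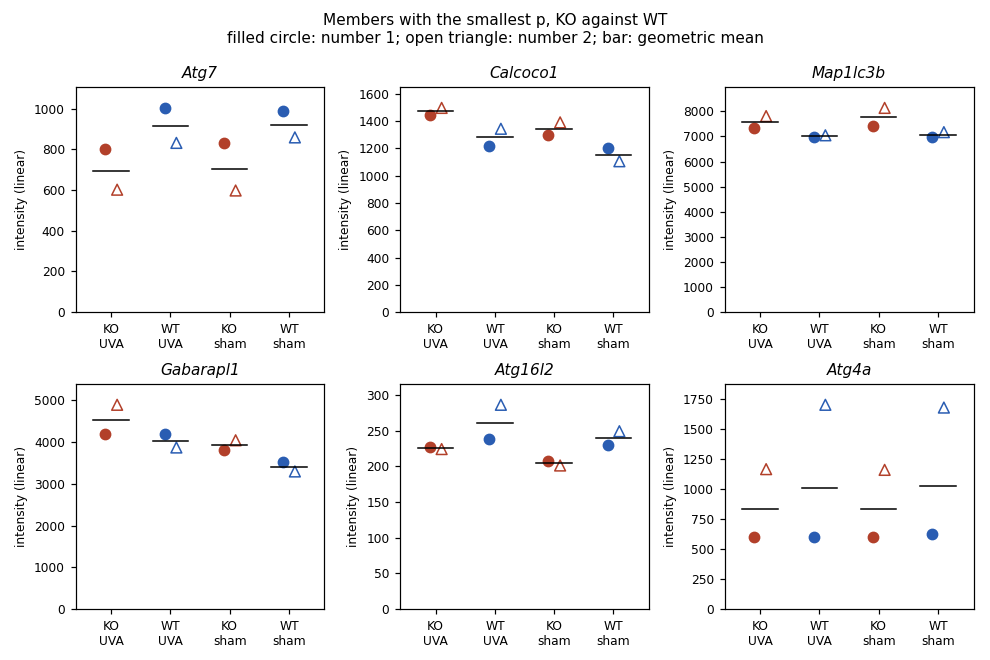
Intensity (linear, vertical axis from 0) in each array of the 6 members with the smallest p for KO against WT, with KO in red and WT in blue. Filled circles are number 1, open triangles number 2 and bars geometric means of the 2 arrays. Atg4a shows the gap between the numbers, from 595 to 623 in number 1 and from 1157 to 1698 in number 2.

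In the upstream groups no member reached an unadjusted p under 0.05. In the ULK complex, 4 of 5 genes were positive, against 45.8% of all genes. Differences ran from -0.05 for the subunit Atg101 to 0.13 for the subunit Atg13. The kinase Ulk1 differed by 0.05, its relative Ulk2 by 0.01 and the scaffold gene Rb1cc1 by 0.04. In the PI3-kinase group, 4 of 6 were negative, against 54.2% of all genes: Uvrag -0.10, Pik3r4 -0.07, Ambra1 -0.07 and Becn1 -0.03. The catalytic subunit Pik3c3 differed by 0.01 and Atg14, which directs the complex to autophagy, by 0.09. Atg9a, the lipid scramblase of vesicles that seed the membrane, differed by -0.06, the lipid transfer genes Atg2a and Atg2b by 0.11 and 0.02, and the PI3P-binding genes Wipi1 and Wipi2 by 0.06 and 0.14. Tfe3 differed by 0.04 and Tfeb by -0.10. In the same direction in 4 of 4 pairs were 7 members higher in KO (18.9%, against 7.65% of all genes) and 4 lower (10.8%, against 7.78%). The 7 were Atg10, Atg3, Atg4b, Calcoco1, Map1lc3a, Map1lc3b and Tax1bp1; the 4 were Ambra1, Atg16l2, Atg7 and Uvrag. Sham and UVA arrays of the same genotype and number correlated at 0.996 to 0.997 across genes, and the labels do not say whether they share a culture, so the 4 pairs may not be independent.

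Taken separately after UVA and after sham, no genotype difference of a member passed. After UVA limma called 0 of 37 members and 0% of all genes, with 1 member (Atg7) at an unadjusted p under 0.05 against 4.18% of all genes. After sham it called 0 of 37 and 0% of all genes, with 3 members (Atg7, Calcoco1 and Map1lc3b) at an unadjusted p under 0.05 against 5.55%. Atg7 differed by -0.39 (SE 0.10) in both, Calcoco1 by 0.20 (SE 0.09) after UVA and 0.22 (SE 0.09) after sham, and Map1lc3b by 0.11 (SE 0.06) and 0.14 (SE 0.06). Tfeb, the master regulator of lysosomal and autophagy genes, read 117 and 155 in KO UVA against 126 and 193 in WT UVA, and 121 and 151 in KO sham against 104 and 174 in WT sham. Its 4 groups overlapped.

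The comparison of UVA with sham, averaged over genotypes, asks how the machinery responds 6 h after irradiation. The members lay on the positive side, with small differences: 28 of 37 were positive (75.7%, against 51% of all genes) and their median was 0.09 log2 units, against 0.00 for all genes. The median was 0.05 to 0.12 when 1 array was left out, the lowest without KO sham of number 2. Tfe3, Tax1bp1, Atg14, Ulk1 and Gabarapl1 had the smallest p among the positive members and Atg10 among the negative ones. None passed: limma with the replicate number as a block called 0 members, where it called 0.0135% of all genes (3 of 22180). At an unadjusted p under 0.05 there were 9 members (24.3%, against 6.54% of all genes), 8 of them positive (21.6%, against 3.88%). Leaving out any 1 array lowered the 9, and the matching shares of all genes are not given here. Without any block limma called 0 members and 0% of all genes. There were then 3 members (Atg14, Gabarapl1 and Ulk1) at an unadjusted p under 0.05, against 1.81% of all genes. A culture block, which pairs the sham and UVA arrays of each genotype and number, called 0.437% of all genes and again 0 members, with 13 at an unadjusted p under 0.05 (35.1%, against 12.6%). The smallest adjusted p of a member was 0.680 with the replicate block, 1 without a block and 0.0635, for Gabarapl1, with the culture block. The fibroblast markers had a median UVA minus sham difference of -0.10, with 1 of 12 positive, and the melanocyte markers one of -0.01; their part was not tested.

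UVA was above sham in all 4 pairs for 15 members (40.5%, against 10.6% of all genes and 12.3% of the 17663 genes with a mean intensity of 50 or more, which include all 37 members). The 15 were Ambra1, Atg13, Atg14, Atg16l1, Atg16l2, Atg2a, Atg4b, Atg4d, Calcoco1, Gabarapl1, Pik3c3, Tax1bp1, Tfe3, Ulk1 and Wipi2. UVA was below sham in all 4 pairs for Atg10 and Wdfy3 (5.41%, against 9.08% of all genes). The median over the members was -0.01 in KO of number 1, 0.11 in KO of number 2, 0.05 in WT of number 1 and 0.12 in WT of number 2, with 17, 32, 26 and 29 of the 37 positive. KO of number 1 was thus the pair in which the members did not lie on the positive side.

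**Figure D3:**
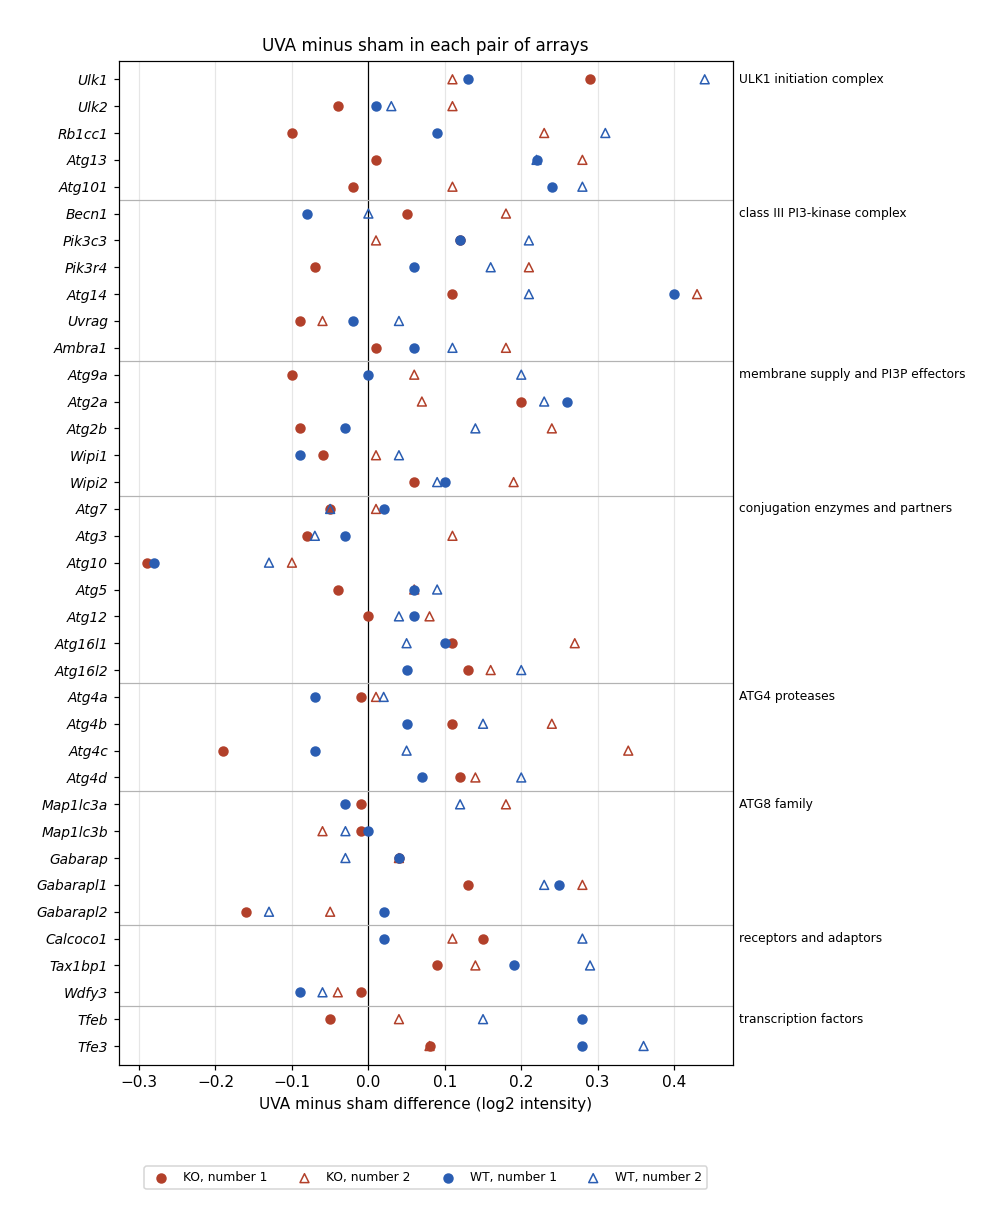
UVA minus sham difference (log2 intensity, horizontal axis) of each of the 37 measured members (vertical axis, by role) in the 4 pairs of arrays of the same genotype and replicate number. Red is KO, blue is WT, filled circles are number 1 and open triangles number 2. The points of 15 members lie right of 0 in all 4 pairs, and those of Atg10 left of it, from -0.29 to -0.10.

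In the initiation complex all 5 genes were positive (against 51% of all genes), with a median of 0.15. Ulk1, the kinase that starts autophagy, read 1211 and 1125 in KO UVA against 989 and 1043 in KO sham, and 1090 and 1237 in WT UVA against 994 and 911 in WT sham. All 4 UVA arrays of Ulk1 lay above all 4 sham arrays, as for 1.23% of all genes. The difference was 0.24 (SE 0.07, 1.18-fold, 95% interval 0.07 to 0.42, limma adjusted p = 0.709). Atg13 differed by 0.18 (SE 0.07), Atg101 by 0.15 (SE 0.06), Rb1cc1 by 0.13 (SE 0.08) and Ulk2 by 0.03 (SE 0.06).

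In the PI3-kinase group, 5 of 6 genes were positive (against 51% of all genes), with a median of 0.09. Atg14 read 401 and 461 in KO UVA against 372 and 342 in KO sham, and 432 and 385 in WT UVA against 327 and 334 in WT sham. It was the other member with all 4 UVA arrays above all 4 sham arrays. The difference was 0.29 (SE 0.08, 1.22-fold, 95% interval 0.09 to 0.48, adjusted p = 0.708), the largest of the 37. Its 4 pairs ranged from 0.11 in KO of number 1 to 0.43 in KO of number 2. Pik3c3 differed by 0.12 (SE 0.07), Pik3r4, its regulatory partner, by 0.09 (SE 0.08), Ambra1, a binding partner of Becn1, by 0.09 (SE 0.06) and Becn1 by 0.04 (SE 0.07). Uvrag, the subunit of the endosomal form of the complex, differed by -0.03 (SE 0.06).

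Gabarapl1 read 4183 and 4894 in KO UVA against 3819 and 4044 in KO sham, and 4198 and 3871 in WT UVA against 3535 and 3297 in WT sham. UVA was higher in 4 of 4 pairs, by 0.13 to 0.28, although KO sham of number 2 lay above WT UVA of number 2. The difference was 0.22 (SE 0.07, 1.17-fold, adjusted p = 0.716). In the other ATG8 genes the difference was -0.02 (SE 0.04) for Map1lc3b, 0.02 (SE 0.04) for Gabarap, 0.07 (SE 0.07) for Map1lc3a and -0.08 (SE 0.06) for Gabarapl2. Whether Gabarapl1 differs from its relatives was not tested.

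Tax1bp1 read 2162 and 1987 in KO UVA against 2032 and 1800 in KO sham, and 2133 and 1972 in WT UVA against 1872 and 1610 in WT sham. UVA was higher in 4 of 4 pairs, and the difference was 0.18 (SE 0.05, 1.13-fold, adjusted p = 0.705). Calcoco1 differed by 0.14 (SE 0.06) and Wdfy3 by -0.05 (SE 0.06).

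Tfe3, a transcription factor that with Tfeb drives lysosomal and autophagy genes, read 1588 and 1342 in KO UVA against 1504 and 1271 in KO sham, and 1713 and 1397 in WT UVA against 1407 and 1092 in WT sham. UVA was higher in 4 of 4 pairs, by 0.08 in both KO pairs and by 0.28 and 0.36 in the WT pairs. The difference averaged over genotypes was 0.20 (SE 0.05, 1.15-fold, limma adjusted p = 0.680). Tfeb differed by 0.10 (SE 0.09).

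**Figure D4:**
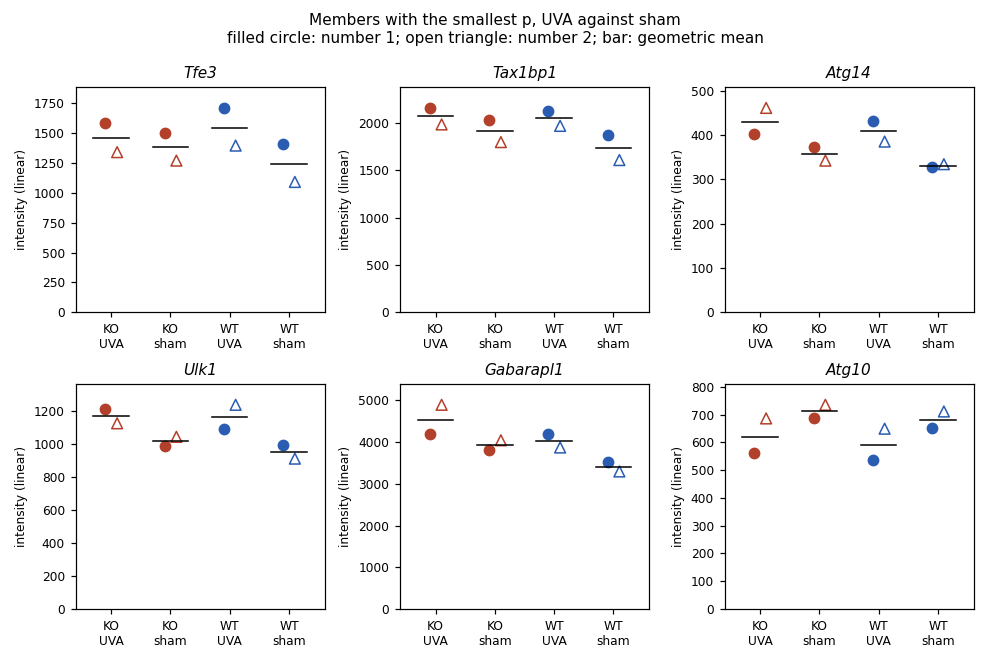
Intensity (linear, vertical axis from 0) in each array of the 6 members with the smallest p for UVA against sham, with KO in red and WT in blue. Filled circles are number 1, open triangles number 2 and bars geometric means of the 2 arrays. For Ulk1 and Atg14 the UVA arrays lie above every sham array, and for Atg10 UVA lies below sham in each pair.

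The conjugation genes were divided, with 4 of 7 positive, against 51% of all genes. Atg10 read 561 and 686 in KO UVA against 688 and 735 in KO sham, and 536 and 649 in WT UVA against 653 and 711 in WT sham. UVA was lower in 4 of 4 pairs, and the difference was -0.20 (SE 0.07, 0.869 of the sham level, adjusted p = 0.716). Atg7 differed by -0.02 (SE 0.07), Atg3 by -0.02 (SE 0.06), Atg5 and Atg12 by 0.04 each (SE 0.07 and 0.06), and Atg16l1 and Atg16l2 by 0.13 each (SE 0.06 and 0.08). Among the membrane supply genes, Atg2a differed by 0.19 (SE 0.07), Wipi2 by 0.11 (SE 0.08), Atg2b by 0.07 (SE 0.08), Atg9a by 0.04 (SE 0.07) and Wipi1 by -0.03 (SE 0.06). Of the proteases, Atg4b differed by 0.14 (SE 0.06), Atg4d by 0.13 (SE 0.09), Atg4c by 0.03 (SE 0.11) and Atg4a by -0.01 (SE 0.11).

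Within each genotype no member passed either. In KO, limma called 0 of 37 members and 0.00902% of all genes, with 0 members at an unadjusted p under 0.05 against 4.02% of all genes. In WT it called 0 of 37 and 0.00451% of all genes, with 7 members at an unadjusted p under 0.05 (18.9%, against 3.94%): Tfe3, Tax1bp1, Atg101, Ulk1, Atg14, Gabarapl1 and Atg2a, all positive. The test of whether the response differs between the genotypes called 0 members and 0% of all genes, with 0 members at an unadjusted p under 0.05 against 2.06% of all genes. Tfe3 had the smallest p there: its UVA response was 0.08 in KO and 0.32 in WT, a difference of -0.24 (SE 0.11, 95% interval -0.50 to 0.02, adjusted p = 1). With the culture block Tfe3 was the 1 member at an unadjusted p under 0.05, against 3.45% of all genes, and its adjusted p was again 1. For Atg101 the difference was -0.21 (SE 0.12) and for Tfeb -0.22 (SE 0.19). Becn1, a PI3-kinase subunit, was the 1 member whose KO pairs (0.05 and 0.18) and WT pairs (-0.08 and 0.00 to 2 decimals) took opposite signs, as 7.45% of all genes did.

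The members also differed between the replicate numbers, which are no condition of the study. The median size of the number 2 minus number 1 difference was 0.16 log2 units over the members and 0.14 over all genes. Atg4a stood at 1.21 on average, from 0.95 in KO sham to 1.51 in WT UVA. Wipi2, which reads PI3P and recruits the conjugation machinery, stood at -0.73: it read 2013 and 1399 in KO UVA and 1925 and 1223 in KO sham, against 2042 and 1109 in WT UVA and 1902 and 1040 in WT sham. Tfeb (0.52) and Atg9a (0.47) were higher in number 2 in every group, and Atg12 (-0.48), Wdfy3 (-0.38) and Atg16l1 (-0.37) lower. The fibroblast markers differed by a median of -1.59 and the melanocyte markers by 0.98 in the same direction of subtraction; their part in these differences was not tested.

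**Figure D5:**
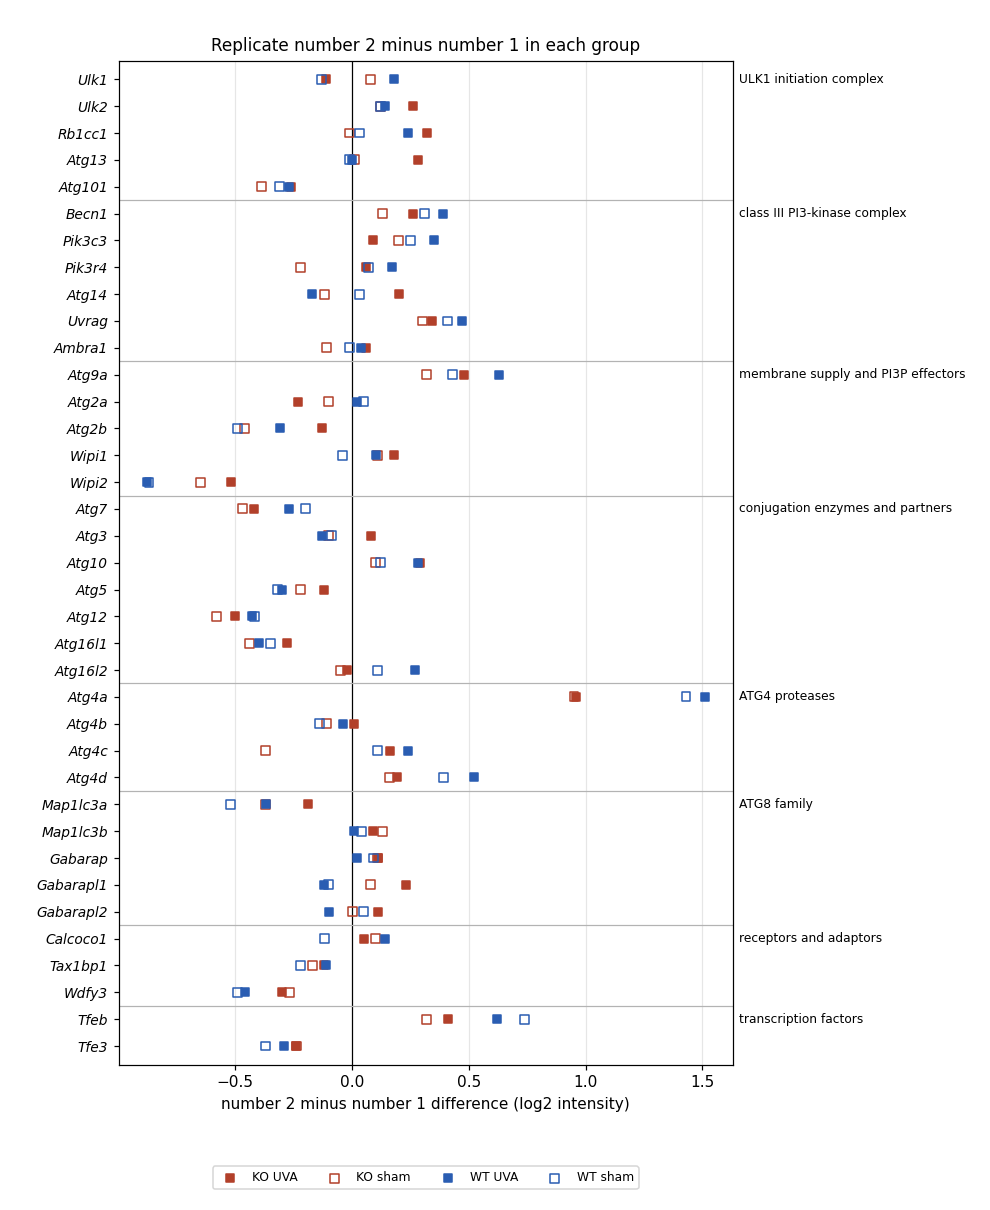
Number 2 minus number 1 difference (log2 intensity, horizontal axis) of each of the 37 measured members (vertical axis, by role) within each group. Red is KO, blue is WT, filled squares are UVA and open squares sham. Atg4a lies farthest right, from 0.95 to 1.51, and Wipi2 farthest left, from -0.88 to -0.52.

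Other genes of the pathway, 56 cargo receptors, phagophore and fusion factors and upstream regulators, were read in the same way, and 54 were measured. For KO against WT 0 passed, and 6 were at an unadjusted p under 0.05, all positive (11.1%, against 8.88% of all genes); their median was 0.02. Foxo1, a transcription factor that can drive autophagy genes, read 560 and 751 in KO UVA and 570 and 790 in KO sham, against 446 and 625 in WT UVA and 424 and 574 in WT sham. KO was higher in each pair, with a difference of 0.37 (SE 0.06, adjusted p = 0.257). Pink1, a kinase that marks damaged mitochondria, differed by 0.22 (SE 0.06) and Sqstm1, which encodes the receptor p62, by 0.13 (SE 0.04).

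For UVA against sham 0 of the 54 passed with the replicate block. At an unadjusted p under 0.05 there were 6, all positive (11.1%, against 6.54% of all genes). The median of the 54 was 0.03, and 34 of 54 were positive, against 51% of all genes. With the culture block 3 of the 54 passed, against 0.437% of all genes, and all 3 were higher after UVA. The list was chosen with earlier results of these data known, so these shares are no test of it. Sqstm1 read 10847 and 11534 in KO UVA against 9350 and 10088 in KO sham, and 10072 and 10782 in WT UVA against 8193 and 9245 in WT sham. The difference was 0.23, with an adjusted p of 0.0233 with the culture block and 0.325 with the replicate block. Plekhm1, an adaptor for fusion with lysosomes, differed by 0.26 (adjusted p = 0.04998 with the culture block and 0.618 with the replicate block). Prkaa2, a catalytic subunit of the energy sensor AMPK, read 402 and 653 in KO UVA against 295 and 444 in KO sham, and 253 and 614 in WT UVA against 193 and 400 in WT sham. Its difference was 0.50 (adjusted p = 0.0325 with the culture block and 0.671 with the replicate block).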

How the data were processed

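The members and gene lists were chosen with earlier results of these data known. The deposited values are whole-number intensity values on a linear scale, 1 per probe set and array, made by RMA in Affymetrix Expression Console 1.3.1.187, per the submitters' processing notes. The genome build is not given in the sources used here. RMA includes quantile normalization, so a change shared by most genes is removed, and rounding coarsens dim values.

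Of 41345 probe sets, 23521 had a single gene symbol, 1814 several and 16010 none in the platform annotation. Where a gene had several probe sets, the brightest on average was kept (22180 genes). The planned tests assumed log2 values, and the deposited ones are linear, so log2 was taken here. limma 3.58.1 in R 4.3.3 fitted 4 group means over all arrays with the replicate number as a block (3 residual degrees of freedom), eBayes with a trend, 7 two-sided comparisons, Benjamini-Hochberg over all genes and a threshold of 0.05; all adjusted p-values are from limma. The scheme was run on simulated arrays with independent errors and an added replicate difference. These cannot show the effect of errors shared by UVA and sham arrays. Pairing by number comes from the rule defining the gene set and from the data: same-numbered arrays deviated together from their group means (r 0.80 to 0.92, 6 pairs of groups), though there are only 2 numbers. For KO against WT, UVA and sham arrays of 1 number count separately, so p-values are too small if they share a culture. Values in every array are given for Atg7, the ATG8 family and the 6 members with the smallest p in each averaged comparison, and other pathway genes are named where they passed or had the 3 smallest p there; the arrays of Tfeb and Wipi2 were added after their values were seen. Alternatives were no replicate block, a culture block for UVA, 1 mean per culture, no trend, a filter on means under 50, the mean of all probe sets, re-normalization, median centring and leaving out each array.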

Additional observations from a re-analysis of the deposited data

How the results depend on the processing

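The count of members called stayed at 0 in all 7 comparisons under each of the 16 alternative settings that applied to it, 103 recomputed counts in all, leave-one-out settings included. Without the replicate block limma called 0 members and 0 of all genes in each comparison. At an unadjusted p under 0.05 there were then 0 members for KO against WT, against 2.33% of all genes. For UVA against sham there were 3 (Atg14, Gabarapl1 and Ulk1), against 1.81% of all genes. With 1 mean per genotype and number and the replicate block, KO against WT gave 0 members and 0 genes. At an unadjusted p under 0.05 there was 1 member (Atg7), against 3.32% of all genes. When 1 array was left out, the members' median was 0.00 to 0.06 for KO against WT and 0.05 to 0.12 for UVA against sham. The number of members at an unadjusted p under 0.05 also changed, and the matching shares of all genes are not given here. Of 103 recomputed medians, 7 moved beyond the spread between replicates, all for KO against WT with 1 array left out. Calls over all genes moved more: KO against WT called 7 genes in the main setting and 0 when any single array was left out, and UVA against sham called 3 genes, 97 with the culture block and 0 to 2 when an array was left out. Within a genotype, UVA against sham called 12 genes with the culture block in WT, against 1 in the main setting, while leaving out any array or the trend gave 0 in WT and in KO (1 and 2 in the main setting). The lowest adjusted p of a member over all settings was 0.0635. Of 300 recomputed differences of the named members, 8 changed sign, all of values near 0: Gabarap for KO against WT, -0.01 in the main setting, was 0.02 with the mean of its probe sets and -0.03 to 0.01 when an array was left out, and Atg7 for UVA against sham, -0.02, was -0.06 to 0.03 when an array was left out. The cause was not tested. The Atg7 difference between KO and WT was -0.44 to -0.34 throughout, with adjusted p from 0.248 to 1. Precision is limited by having 2 arrays per group.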
